A study of Homo sapiens with 36 samples.

Results

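The 10 genes described here encode proteins that modify, fold and join collagen chains. LOX, LOXL1, LOXL2, LOXL3 and LOXL4 are the lysyl oxidases, PLOD1 and PLOD2 are lysyl hydroxylases, P4HA1 and P4HA2 are the catalytic alpha subunits of collagen prolyl 4-hydroxylase, and SERPINH1 (also known as HSP47) is a chaperone for collagen. They were chosen by gene symbol, with earlier results of these data known, and all 10 were found among the 60675 genes of the count table. Each was followed through 36 RNA sequencing libraries of 2 human cell lines, SW1783 and HT29, in 12 groups of 3 replicates.

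Collagen is made as chains that are hydroxylated on proline and lysine inside the endoplasmic reticulum before they wind into a triple helix. Proline hydroxylation, the work of prolyl 4-hydroxylase, keeps the helix stable at body temperature, and SERPINH1 binds the newly folded helix on its way out of the cell. Outside the cell, lysyl oxidases convert lysines and hydroxylysines into reactive aldehydes, from which the crosslinks between collagen or elastin molecules form. PLOD2 hydroxylates lysines in the telopeptides, the short ends of the chains where crosslinks begin. P4HA1, PLOD2 and LOX are known targets of hypoxia-inducible factor, and SERPINH1 is a known target of heat shock factor. Mesenchymal cells make most fibrillar collagen, while intestinal epithelial cells make little.

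Both are established lines, SW1783 from an astrocytoma and HT29 from an adenocarcinoma of the colon or rectum. In batch A, cells of each line received vehicle or wortmannin at 10 µM, the positive control, which blocks PI3K, a kinase of membrane lipids. In batch B, they received vehicle or ACD, the extract that hot water draws from Aconitum carmichaeli Debeaux, at 20, 100 or 500 µg/mL, called the low, medium and high dose. All cells were harvested after 24 h, both vehicles contained DMSO, and SW1783 and HT29 were grown in different media. The labels do not say whether replicates came from separate cultures, so p-values measure the spread between these libraries, which may be technical.

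The SW1783 libraries held 18863852 to 26436841 counts each and the HT29 libraries 15941250 to 33866636. CPM below is the usual scaling of a gene's count to the total of its library. Of the markers of SW1783, VIM was at 4076 to 4975 CPM, but the astrocyte markers GFAP and S100B did not exceed 0.261 and 0.253 CPM, so these defining markers of astrocytes were at or near 0. HT29 carried its epithelial markers, with EPCAM at 452 to 585 CPM and KRT20 at 233 to 312 CPM. Replicate 2 of HT29 at the high dose had the lowest depth and stood apart from the other libraries, and the values of the members that moved most without it are given beside the results of its group.

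In the vehicle of batch B, SW1783 expressed 9 of the 10 genes at higher levels than HT29, and LOXL4 at a lower level. Levels between genes are compared here as CPM per kb of the main transcript. In SW1783, LOXL2 stood first at 303 ± 2.1 (SD, n = 3), ahead of SERPINH1 at 247 ± 4.9 and PLOD1 at 179 ± 2.4. PLOD2 at 100.2 ± 3.8, P4HA1 at 86.6 ± 3.5 and LOXL1 at 70.2 ± 9.0 formed the middle of the order. P4HA2 followed at 30.5 ± 0.26, LOX at 26.9 ± 0.48, LOXL3 at 11.8 ± 0.59 and LOXL4 at 1.46 ± 0.12. No neighbors in this order overlapped between their 3 libraries, but the order depends on the transcript length used. Per kb of all exons of a gene, LOXL2 still stood first at 188.4. PLOD1 at 100.3 then lay above SERPINH1 at 80.9, P4HA1 at 76.8 and LOXL1 at 45.3 above PLOD2 at 25.9, and LOX at 24.4 above P4HA2 at 13.7.

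HT29 had another order. SERPINH1 led at 28.7 ± 0.40 CPM per kb (SD, n = 3), then PLOD1 at 12.8 ± 0.19 and PLOD2 at 12.3 ± 0.52, whose libraries overlapped. P4HA1 was at 11.2 ± 0.41 and LOXL4, the leading lysyl oxidase of this line, at 8.71 ± 0.41. LOXL1 at 4.07 ± 0.44 and P4HA2 at 4.02 ± 0.29 could not be ordered, since their libraries overlapped. LOXL3 and LOX were near 0.326 and 0.23, and LOXL2 was at the limit of detection. This order also depends on length. Per kb of all exons, P4HA1 at 9.96 lay above SERPINH1 at 9.41, and LOXL4 at 8.71 above PLOD1 at 7.15 and PLOD2 at 3.19.

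**Figure D1:**
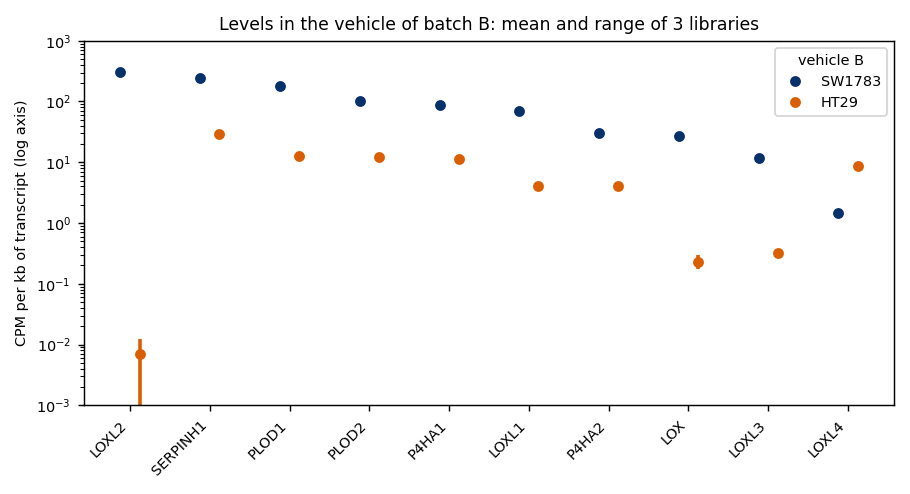
Levels of the 10 genes in the vehicle of batch B on a log axis, as CPM per kb of transcript, with points for the mean and bars for the range of 3 libraries per cell line. SW1783 lies above HT29 for every gene but LOXL4, and the bar of LOXL2 in HT29 runs off the axis because a library had no count.

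All 10 genes differed between the lines by more than 1.5-fold with an adjusted p-value under 0.05 (DESeq2 Wald test), where 55.9% of all tested genes did. Relative to HT29, SERPINH1 had a log2 fold change of 3.13 ± 0.05 (SE), P4HA1 by 2.97 ± 0.07, P4HA2 by 2.94 ± 0.07, PLOD2 by 3.04 ± 0.06 and PLOD1 by 3.83 ± 0.05, SW1783 being higher. The lysyl oxidases differed more widely, with LOX at 6.88 ± 0.17, LOXL3 at 5.22 ± 0.18 and LOXL1 at 4.12 ± 0.12. LOXL4 went the other way at -2.57 ± 0.12. For LOXL2 no fold is given, because HT29 vehicle libraries of batch B held 0, 1 and 1 counts against 21971 to 26163 in SW1783. Over all 18 HT29 libraries LOXL2 had 10 counts in sum, and 10 libraries had none. Cell line, growth medium and origin of the cells cannot be told apart in this comparison.

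Several of these genes share exons with neighbors, and the strand setting of the counting is not given in the sources used here. Of the exon bases of LOXL3 (ENSG00000115318), 20.71% overlap HTRA2 on the opposite strand, and 9.21% of those of LOXL1 (ENSG00000129038) overlap the antisense RNA LOXL1-AS1. P4HA2 shares 5.41% with P4HA2-AS1. LOXL3 also shares 4.78% with DOK1, and no overlap of the other genes exceeded 4.23% of their exon bases.

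The promoter table of RefSeq (GRCh38.p14) was searched for 9 of the 10 genes, and LOXL2 was not examined. In the 250 bases upstream of the first listed start, both strands were searched for the core of the hypoxia response element (ACGTG or GCGTG), the heat shock element (GAANNTTC) and the AP-1 site (TGACTCA). A hypoxia core was present in 4 of the 9 windows (LOX, PLOD1, PLOD2 and P4HA1) and in 43.2% of all 35116 windows of the table, so the share among the 9 was near that of all promoters. The heat shock element was in 1 of the 9, SERPINH1, and in 5.78% of all windows. TGACTCA was in 0 of the 9 and in 4.2% of all. The following stretches of 30 bases are shown because they carry the matches of LOX, PLOD2, P4HA1 and SERPINH1, the genes that changed in SW1783 with both the high dose of ACD and wortmannin and that hold a match. They read 5′ to 3′ on the strand of the gene, with the matched letters in capitals (CACGT is ACGTG on the other strand).
SERPINH1, chr11:75562171-75562200, plus strand: ccaactttccaGAAGTTTCtcgggacgggc
P4HA1, chr10:73096935-73096964, minus strand: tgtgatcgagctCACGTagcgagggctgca
PLOD2, chr3:146161374-146161403, minus strand: agcgctGCGTGagcctccaCACGTagccgc
PLOD2, chr3:146161313-146161342, minus strand: caaacagtccagACGTGgggcccaggaggg
LOX, chr5:122078427-122078456, minus strand: gctccctgtgcaACGTGtctggggggagga
LOX, chr5:122078349-122078378, minus strand: ttgCACGTttccaatcgcattACGTGaaca
LOX, chr5:122078284-122078313, minus strand: gtaactttgcaaACGTGccagaaagtttaa
LOX held 4 matches of ACGTG, PLOD2 held 2 of ACGTG and 1 of GCGTG, and P4HA1 held 1. These windows overlap annotated exons of the same genes. All 250 bases of the PLOD2 window lie in its own exons, as do 197 for SERPINH1, 154 for LOX and 108 for P4HA1. A match is a description of letters, not a binding site.

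At the high dose of ACD, SW1783 lowered most of these genes and raised 2 of them. LOXL1, SERPINH1, P4HA1, PLOD2, LOXL2 and LOXL3 fell, LOX and P4HA2 rose, and PLOD1 and LOXL4 did not pass the test. Of the 10 genes, 8 had an adjusted p-value under 0.05, where 46.5% of all tested genes did. Only LOXL1 and SERPINH1 also changed by more than 1.5-fold and count as differentially expressed genes (DEGs), where 18.2% of all tested genes did, so the share of DEGs among the 10 is near the background. The median log2 fold change of the 10 was -0.16 and that of all tested genes -0.01. Values below are normalized counts (DESeq2 size factors). In bulk RNA, a change in each cell and a change in the share of cells that express a gene cannot be told apart.

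Among the lysyl oxidases, LOXL1 changed most. LOXL1, which crosslinks elastin in particular, had 2856, 3660 and 3490 normalized counts without ACD (vehicle) and 1580, 1561 and 1783 with the high dose. All treated libraries lay below all vehicle libraries, with a log2 fold change of -1.02 ± 0.09 (SE) and an adjusted p = 1.4e-29. LOX moved in the opposite direction, from 2727, 2811 and 2770 to 3548, 3697 and 3725, a log2 fold change of 0.40 ± 0.04 (adjusted p = 2.4e-28). Neither pair of groups overlapped, so in SW1783 the founding member of the family was higher and LOXL1 was lower in the same libraries.

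LOXL2, the most abundant lysyl oxidase transcript of these cells, fell from 22716, 22921 and 22866 to 20712, 20618 and 20494 (log2 fold change -0.15 ± 0.02, adjusted p = 5.92e-10). This is a small change that exceeded the narrow spread of its libraries. LOXL3 fell by a log2 fold change of -0.17 ± 0.07 (adjusted p = 0.0226), from 840 to 923 in the vehicle to 758 to 801 at the high dose. That call was lost when high dose replicate 1 or 3 or vehicle replicate 2 or 3 was left out, with adjusted p = 0.106, 0.0501, 0.152 and 0.0603. LOXL4 was scarce, with 97 to 115 normalized counts in the vehicle and 85 to 107 at the high dose, and its groups overlapped (adjusted p = 0.508, 95% interval of the log2 fold change -0.497 to 0.186).

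The hydroxylases split within each family. PLOD2 was at 7887, 7607 and 7328 in the vehicle and at 5762, 5607 and 5855 at the high dose, a log2 fold change of -0.41 ± 0.04 (adjusted p = 5.69e-26). PLOD1, which hydroxylates lysines of the helical part of collagen, was at 10658 to 10890 in the vehicle and at 10332 to 10534 at the high dose, a log2 fold change of -0.05 ± 0.03 that did not pass the test (adjusted p = 0.134, 95% interval -0.098 to 0.004). The data therefore bound any change of PLOD1 to far less than that of PLOD2.

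P4HA1 was at 5012, 4786 and 4627 in the vehicle and at 3561, 3397 and 3300 at the high dose, a log2 fold change of -0.49 ± 0.04 (adjusted p = 1.39e-34). P4HA2 rose from 2842, 2797 and 2800 to 3456, 3394 and 3339, a log2 fold change of 0.27 ± 0.04 (adjusted p = 1.27e-09). The alternative alpha subunits thus moved in opposite directions without overlap between the groups. Per kb of transcript, P4HA2 made up 26.1% ± 0.625 of the alpha subunit transcripts in the vehicle and 37.4% ± 0.495 at the high dose (SD, n = 3).

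SERPINH1 had 10145, 10185 and 10555 normalized counts in the vehicle and 6777, 6492 and 6679 at the high dose. The log2 fold change was -0.63 ± 0.03 (adjusted p = 1.47e-116), and all treated libraries lay far below all vehicle libraries. SERPINH1 and LOXL1 remained DEGs whichever of the 6 libraries was left out, with log2 fold changes of -0.64 to -0.61 and of -1.12 to -0.95.

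**Figure D2:**
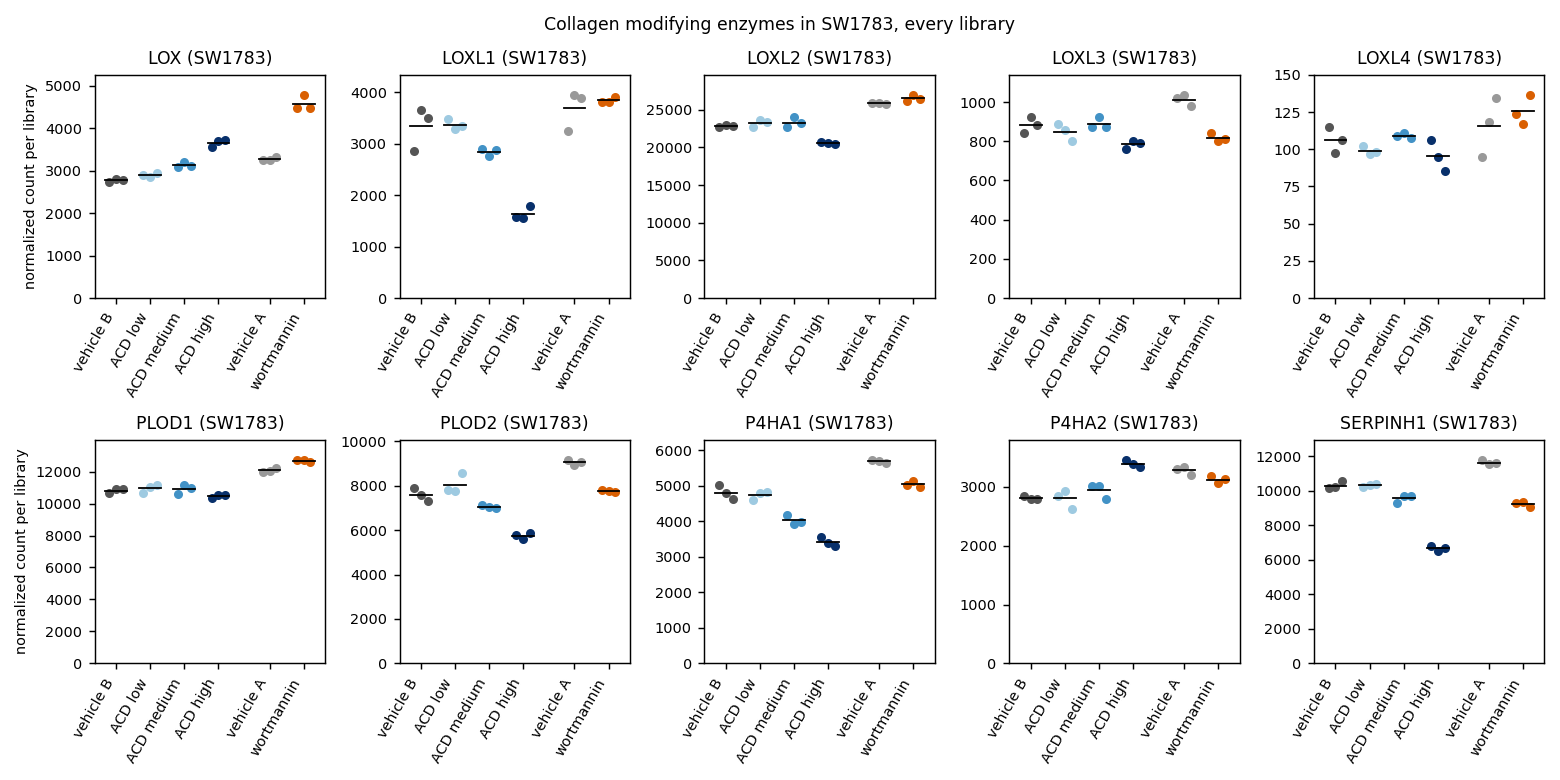
Normalized counts of the 10 genes in the 18 SW1783 libraries, 1 point per library with a line at the group mean, and y axes that start at 0. Batch B (vehicle B and 3 doses) and batch A (vehicle A and wortmannin) were scaled separately, so only groups of the same batch can be compared. SERPINH1, LOXL1, PLOD2 and P4HA1 step down and LOX steps up toward the high dose.

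Among the 10, 9 had groups without overlap between vehicle and high dose, where 60.4% of all tested genes did. Markers of blood and endothelium summed to 152.6 to 160.8 CPM in the vehicle and 179.9 to 191.9 CPM at the high dose, nearly all of it CD68, while HBB and CD3E were at 0 in both groups and PTPRC was at 12.7 to 14.2 and 3.28 to 4.91 CPM. The 6 epithelial markers summed to 221.8 to 230.6 and 68.7 to 75.1 CPM, nearly all of it KRT18, and those other than KRT18 did not exceed 0.152 CPM in either group. The part of these markers in the changes of the members was not tested.

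The medium dose moved a part of the set in the same directions. LOX was at 3090, 3197 and 3110 normalized counts, above all vehicle libraries, with a log2 fold change of 0.18 ± 0.04 (adjusted p = 9.51e-06). P4HA1, at 4176, 3933 and 3972, fell by 0.26 ± 0.04 on the log2 scale (adjusted p = 1.1e-09), and SERPINH1, at 9308, 9705 and 9706, by 0.10 ± 0.03 (adjusted p = 0.000696). Both lay below all vehicle libraries. PLOD2 fell with a log2 fold change of -0.11 ± 0.04 (adjusted p = 0.0181) and LOXL1 with -0.23 ± 0.09 (adjusted p = 0.0306), but both calls depended on single libraries. For LOXL1 the groups overlapped, and leaving out vehicle replicate 2 or 3 or any medium dose library gave adjusted p-values of 0.0668 to 0.174. For PLOD2, leaving out vehicle replicate 1 or 2 or medium dose replicate 2 or 3 gave 0.0579 to 0.146. In all, 5 of 10 genes passed the adjusted p-value, where 29.5% of all tested genes did, and 0 were DEGs, where 3.81% of all were. By edgeR 0 were DEGs as well and 5 passed, among them PLOD2 (adjusted p = 0.00432) and LOXL1 (adjusted p = 4.44e-10). For LOXL1 the fold was nearly the same by both tools. Its small edgeR value does not lift the overlap of the groups or the dependence on single libraries. By DESeq2 5 had an unadjusted p-value under 0.05.

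At the low dose 0 of 9 tested genes passed (3.29% of all tested genes passed and 0.118% were DEGs). By DESeq2 1 of the genes had an unadjusted p-value under 0.05 and by edgeR 0 passed. LOX was the only gene whose low dose libraries (2887, 2852 and 2937) all lay above the vehicle, with a log2 fold change of 0.06 ± 0.04 (adjusted p = 0.448), where 25.7% of all tested genes had groups without overlap. LOXL4 was too scarce to receive an adjusted p-value.

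Between the medium and the high dose, 8 of 10 genes passed (40.9% of all tested genes) and only LOXL1 was a DEG (10.2% of all). LOXL1 differed by -0.79 ± 0.09 on the log2 scale (adjusted p = 1.03e-17) and SERPINH1 by -0.53 ± 0.03 (adjusted p = 2.41e-80), so most of their decrease lay between 100 and 500 µg/mL. P4HA1 differed by -0.24 ± 0.04, about as much as between vehicle and medium dose. PLOD2 differed by -0.30 ± 0.04, LOX by 0.22 ± 0.04, P4HA2 by 0.21 ± 0.04 and LOXL2 by -0.175 ± 0.02. LOXL3 differed by -0.18 ± 0.07 (adjusted p = 0.0169), which was lost without high dose replicate 1 or medium dose replicate 2, with adjusted p = 0.0887 and 0.109. PLOD1 was just outside the threshold (-0.06 ± 0.03, adjusted p = 0.0509) and inside it without medium dose replicate 1 (adjusted p = 0.0158).

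Wortmannin raised LOX in SW1783 and lowered SERPINH1, LOXL3, PLOD2 and P4HA1, while LOXL1 and LOXL2 did not pass the test. LOX had 3254, 3252 and 3315 normalized counts in the vehicle of batch A and 4472, 4780 and 4473 with wortmannin, a log2 fold change of 0.48 ± 0.04 (adjusted p = 4.41e-38). The 3 treated libraries were well above the vehicle libraries. SERPINH1 fell from 11763, 11540 and 11575 to 9275, 9316 and 9040 (log2 fold change -0.34 ± 0.02, adjusted p = 6.79e-45). PLOD2 fell from 8951 to 9156 to 7731 to 7800 (-0.22 ± 0.02, adjusted p = 3.5e-18), and P4HA1 from 5649 to 5722 to 4971 to 5123 (-0.18 ± 0.03, adjusted p = 1.82e-08). None of these groups overlapped.

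LOXL3 fell with wortmannin from 1019, 1037 and 979 to 843, 800 and 812 (-0.31 ± 0.065, adjusted p = 2.16e-05). PLOD1 rose by 0.07 ± 0.02 on the log2 scale (adjusted p = 0.00469). LOXL1 was at 3243, 3947 and 3878 in the vehicle and 3807, 3811 and 3912 with wortmannin, with overlapping groups (0.06 ± 0.09, adjusted p = 0.673). P4HA2 stood at -0.07 ± 0.04 (adjusted p = 0.134), LOXL2 at 0.04 ± 0.02 (adjusted p = 0.124) and LOXL4 at 0.12 ± 0.185 (adjusted p = 0.681). In all, 6 of the 10 genes passed, where 33.9% of all tested genes did, 8 had groups without overlap (55.5% of all), and 0 were DEGs by DESeq2 or edgeR, where 2.72% of all were by DESeq2. The unadjusted p-value was under 0.05 for 6.

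Side by side, and with different vehicles, the log2 fold changes of the high dose of ACD and of wortmannin in SW1783 were 0.40 and 0.48 for LOX, -0.63 and -0.34 for SERPINH1, -0.41 and -0.22 for PLOD2, and -0.49 and -0.18 for P4HA1. For LOXL1 they were -1.02 and 0.06, and for P4HA2 0.27 and -0.07. The difference between the treatments was not tested, since they belong to different batches.

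In HT29 the high dose of ACD changed none of these genes past the threshold: 0 of 9 tested genes passed, where 7.62% of all tested genes did, and 0 were DEGs, where 2.92% of all were. By edgeR 0 passed too, and 3 genes had an unadjusted p-value under 0.05 by DESeq2 (P4HA1, P4HA2 and SERPINH1, all higher). P4HA1 was at 768, 689 and 730 normalized counts in the vehicle and at 775, 1181 and 833 at the high dose, where replicate 2 was far above the others. Its log2 fold change was 0.35 ± 0.15 (adjusted p = 0.146). Without high dose replicate 2 it was 0.15 (adjusted p = 0.297), and without high dose replicate 1 it was 0.46 and passed (adjusted p = 0.0325). SERPINH1 was at 1438, 1354 and 1402 in the vehicle and 1528, 1609 and 1475 at the high dose, slightly higher without overlap (0.13 ± 0.06, adjusted p = 0.201). LOX, at 21, 26 and 35 in the vehicle and 14, 29 and 13 at the high dose, had a log2 fold change of -0.64 ± 0.375 with replicate 2 and of -1.01 ± 0.44 without it (adjusted p = 0.37 and 0.0982). LOXL3, with few counts as well, had 0.19 with replicate 2 and -0.10 without it, and passed in neither case (adjusted p = 0.853 and 0.899). In HT29, 4 genes had groups without overlap, where 21.4% of all tested genes did.

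LOXL4, the main lysyl oxidase of HT29, had another course. It was at 718, 742 and 763 normalized counts in the vehicle, at 870, 968 and 997 at the low dose, at 903, 917 and 911 at the medium dose and at 660, 696 and 720 at the high dose. The low and medium dose libraries all lay above the vehicle, whereas high dose and vehicle overlapped. Those of PLOD2 also all lay above the vehicle at the low and medium dose, without passing the test (adjusted p = 0.728 and 0.736). Of all tested genes, 20.6% and 27.9% had groups without overlap at these doses. The log2 fold changes were 0.35 ± 0.08 at the low dose (adjusted p = 0.00192), 0.30 ± 0.08 at the medium dose (adjusted p = 0.00832) and -0.10 ± 0.08 at the high dose (adjusted p = 0.579). LOXL4 was the only one of the 9 tested genes to pass at the low dose, where 0.649% of all tested genes passed, and at the medium dose, where 2.09% did. It was no DEG, and 0.321% and 0.827% of all tested genes were at these doses.

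Both calls were lost with edgeR's quasi-likelihood test (adjusted p = 0.147 at the low and 0.213 at the medium dose). The low dose call was also lost without low dose replicate 2 or 3 or vehicle replicate 2 (adjusted p = 0.0789, 0.0815 and 0.127). The medium dose call was lost without any of the medium dose libraries or without vehicle replicate 1 or 2 (adjusted p = 0.0701 to 0.112). Between the medium and the high dose, LOXL4 differed by -0.39 ± 0.08 on the log2 scale (adjusted p = 5.99e-05; edgeR adjusted p = 0.0395), the only call among the 9 tested genes, where 1.7% of all tested genes passed and 0.7% were DEGs. That call held without any 1 of the 6 libraries. P4HA1 differed between these doses by 0.40 ± 0.15 (adjusted p = 0.19), by 0.20 without high dose replicate 2 (adjusted p = 0.474) and by 0.51 without high dose replicate 1, where it passed (adjusted p = 0.0365).

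With wortmannin LOXL4 rose in HT29. It had 863, 684 and 687 normalized counts in the vehicle of batch A and 1221, 1135 and 1322 with wortmannin, all above the vehicle, of which replicate 1 was the highest. The log2 fold change was 0.72 ± 0.11 (adjusted p = 9.28e-10). P4HA2 rose from 432, 374 and 406 to 544, 536 and 579 (0.46 ± 0.10, adjusted p = 0.0002), again without overlap. These were the 2 genes of 9 tested that passed, where 18.7% of all tested genes did, and LOXL4 was the only DEG, where 2.65% of all were. SERPINH1 was at 1217 to 1286 in the vehicle and 1146 to 1224 with wortmannin (-0.07 ± 0.07, adjusted p = 0.543), and PLOD2 at 948 to 1020 and 961 to 1016 (-0.02 ± 0.08, adjusted p = 0.913).

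**Figure D3:**
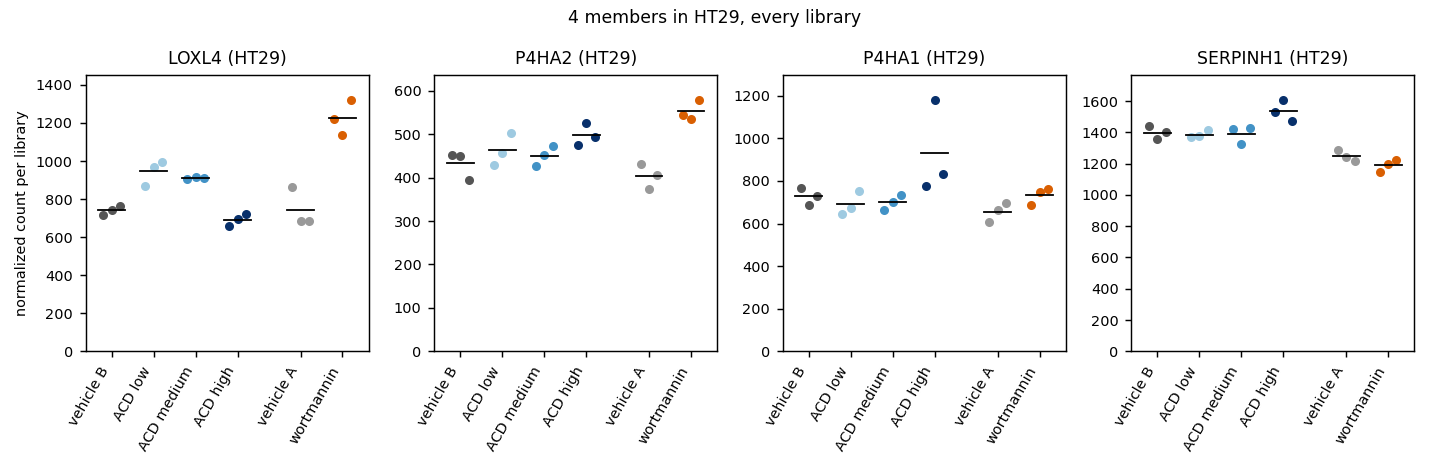
Normalized counts of LOXL4, P4HA2, P4HA1 and SERPINH1 in the 18 HT29 libraries, 1 point per library with a line at the group mean, and y axes that start at 0. LOXL4 and P4HA2 lie above vehicle A with wortmannin (the batches were scaled separately), and replicate 2 of the high dose stands alone for P4HA1 at 1181.

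Whether the lines responded differently was tested as an interaction, the log2 fold change in SW1783 minus that in HT29. At the high dose 6 of the 10 genes passed, where 27.7% of all tested genes did, and 4 differed by more than 1.5-fold, where 14.6% of all did. LOX differed by 1.07 ± 0.27 (adjusted p = 0.000387), with 0.40 in SW1783 and -0.64 ± 0.38 in HT29, where LOX had only 13 to 35 normalized counts in the libraries compared. The fit over both lines gave each gene a shared estimate of spread. For LOX the SE of the difference is therefore below that of HT29 alone, and its adjusted p may be too small. SERPINH1 differed by -0.81 ± 0.055 (adjusted p = 4.15e-47), LOXL1 by -0.90 ± 0.15 (adjusted p = 5.31e-08) and P4HA1 by -0.87 ± 0.14 (adjusted p = 6.07e-09). All 4 remained past both thresholds without any 1 of the 12 libraries compared. Without HT29 high dose replicate 2, LOX differed by 1.37 and P4HA1 by -0.69.

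PLOD2 differed by -0.53 ± 0.07 (adjusted p = 1.16e-11) and PLOD1 by -0.22 ± 0.06 (adjusted p = 0.00272), the latter not by edgeR (adjusted p = 0.282). P4HA2, which rose in SW1783, showed no detectable difference between the lines (0.035 ± 0.09, 95% interval -0.14 to 0.21, adjusted p = 0.849). At the medium dose PLOD2 (-0.22 ± 0.07, adjusted p = 0.0254) and LOX (0.71 ± 0.25, adjusted p = 0.0441) passed of 10, where 10.4% of all tested genes did, and LOX was the 1 gene beyond 1.5-fold, where 3.34% of all were. Neither passed with edgeR (adjusted p = 0.479 and 0.075), and both calls depended on single libraries. For LOX the SE of this difference, too, was below that of HT29 alone (0.364). LOX remained only without HT29 vehicle replicate 1 or SW1783 medium dose replicate 1, its adjusted p without each of the others being 0.05 (rounded) to 0.244. PLOD2 was lost without any of 8 of the 12 libraries, with adjusted p-values up to 0.105. At the low dose 0 of 10 passed by DESeq2 or edgeR, where 0.929% of all tested genes passed and 0.267% were beyond 1.5-fold, and 1 had an unadjusted p-value under 0.05.

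For wortmannin the interaction passed for 5 of 10 genes, where 14.9% of all tested genes did. P4HA2 differed by -0.56 ± 0.08 (adjusted p = 3.01e-10), P4HA1 by -0.36 ± 0.07 (adjusted p = 1.22e-05), SERPINH1 by -0.29 ± 0.05 (adjusted p = 1.4e-06) and PLOD2 by -0.22 ± 0.06 (adjusted p = 0.00115), a call that was lost with edgeR (adjusted p = 0.0925) and with the replicate number as a block (adjusted p = 0.0899). LOXL4 differed by -0.63 ± 0.185 (adjusted p = 0.00808) and was the 1 gene beyond 1.5-fold, where 3.36% of all were. Without SW1783 vehicle replicate 3 its call was lost (-0.51, adjusted p = 0.0688), as it was with the replicate number as a block (adjusted p = 0.0515). LOXL4 was beyond 1.5-fold in 7 of the 12 fits that left out a library. LOX, raised in SW1783, differed by 0.35 ± 0.25 (adjusted p = 0.39), and at the low counts of LOX in HT29 a difference of this size was not detectable.

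**Figure D4:**
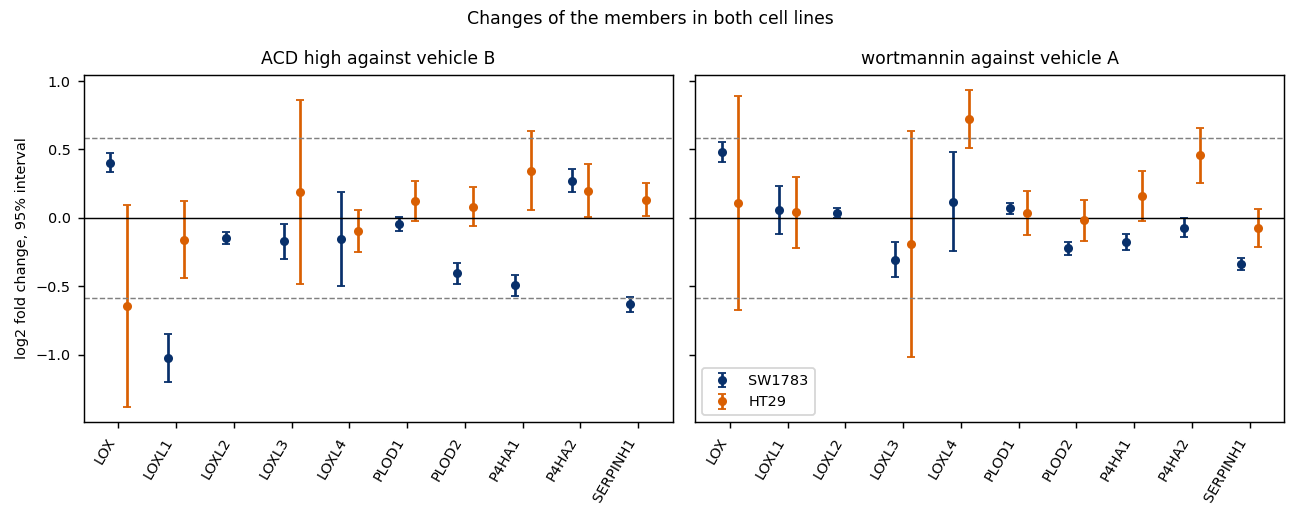
Log2 fold changes with 95% intervals for the high dose of ACD (left) and wortmannin (right) against the vehicle of the same batch, in SW1783 and HT29. LOXL2 is left out for HT29, and dashed lines mark a change of 1.5-fold. SERPINH1, P4HA1, PLOD2 and LOXL1 lie below 0 in SW1783 at the high dose, whereas their HT29 intervals reach 0 or lie above it.

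Other genes, mostly of collagen hydroxylation and folding, moved in both directions in SW1783, as the members did. Of 14 such genes tested at the high dose, 6 rose, 3 fell and 5 did not pass (46.5% of all tested genes passed), with a median log2 fold change of 0.12. By the rule for named genes MIA3, which loads procollagen into export vesicles, is the one to give, at 2664.5 ± 103 normalized counts in the vehicle and 4080 ± 83 at the high dose (SD, n = 3), a log2 fold change of 0.615 ± 0.04. P4HB, the beta subunit that pairs with P4HA1 and P4HA2, was chosen after its values were seen: it rose by 0.27 ± 0.02 on the log2 scale (adjusted p = 2.77e-35). PLOD3, the third lysyl hydroxylase, also chosen in this way, rose by 0.10 ± 0.03 (adjusted p = 0.0063). At the medium dose 6 of 12 tested genes of this list rose and 1 fell, where 29.5% of all tested genes passed in either direction. With wortmannin 4 rose and 3 fell, where 33.9% of all passed.

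Of the proteases and enhancers that trim procollagen, all 7 tested genes of 8 fell at the high dose, where 46.5% of all tested genes passed in either direction, with a median log2 fold change of -0.825 against -0.01 over all tested genes. ADAMTS2, which removes the amino-terminal propeptide, fell from 2488 ± 25 to 1073 ± 40 normalized counts (SD, n = 3), TLL1 from 384 ± 7.5 to 131 ± 7.7 and ADAMTS14 from 535 ± 39 to 303 ± 10. At the medium dose 4 of 7 fell, where 29.5% of all tested genes passed. With wortmannin 2 of 7 rose and 1 fell, where 33.9% of all passed.

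The substrates fell further than the enzymes. Of 9 fibrillar collagen and elastin genes tested, 7 fell at the high dose and 2 did not pass (46.5% of all tested genes passed), with a median log2 fold change of -1.20. COL1A1 went from 69316 ± 1927 to 16559 ± 684 normalized counts, COL1A2 from 43737 ± 904 to 11774 ± 583 and COL3A1 from 1291 ± 74 to 407.5 ± 23 (SD, n = 3). Summed over the 9 fibrillar collagen genes, the CPM at the high dose was 27.7% of that in the vehicle, while the summed CPM of the 10 enzymes and chaperone was 78.8%. The ratio of collagen to enzyme counts was 2.52 ± 0.04 in the vehicle, 2.375 ± 0.11 with 20 µg/mL, 2.01 ± 0.07 with 100 µg/mL and 0.887 ± 0.03 with 500 µg/mL (SD, n = 3). With wortmannin it was 2.33 ± 0.05 against 2.50 ± 0.04 in the vehicle of batch A. The libraries of the vehicle and of all doses of batch B did not overlap in this ratio. Vehicle (2.482 to 2.564) and low dose (2.256 to 2.48) nearly touched. Those of wortmannin and vehicle A did not overlap either. The ratio is given as a description, and no test was run on it.

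Within families, the make-up of the lysyl oxidase transcripts of SW1783 shifted at the high dose. Per kb, LOXL1 went from 16.9% ± 1.7 to 9.72% ± 0.67 of the family, LOX from 6.52% ± 0.09 to 10.0% ± 0.23 and LOXL2 from 73.3% ± 1.7 to 77.0% ± 0.79 (SD, n = 3). Of the lysyl hydroxylase transcripts with PLOD3 included, PLOD2 went from 26.2% ± 0.91 to 21.1% ± 0.43. In HT29 LOXL4 made up 64.9% ± 5.1 of the lysyl oxidase transcripts in the vehicle of batch A and 74.9% ± 1.4 with wortmannin. These shares depend on the transcript length used for each gene. Without division by length, and with all exons of a gene as its length, LOX, LOXL1, PLOD2 and LOXL4 moved in the same direction. LOXL2 then went from 76.3% ± 1.2 to 76.9% ± 0.66, with overlapping libraries, and from 70.0% ± 1.6 to 72.5% ± 0.80.

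**Figure D5:**
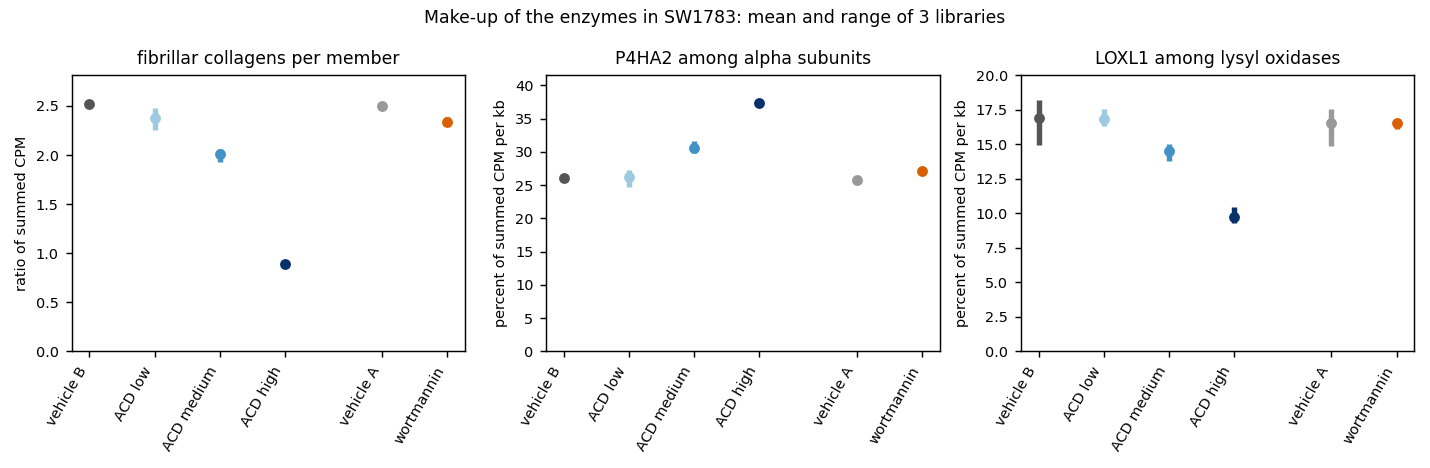
Ratio of summed fibrillar collagen to summed member CPM (left), share of P4HA2 among P4HA1, P4HA2 and P4HA3 (middle) and share of LOXL1 among the lysyl oxidases (right) in SW1783, as the mean (point) and range (bar) of 3 libraries. The collagen ratio falls to 0.887 at the high dose, the P4HA2 share rises to 37.4% and the LOXL1 share falls to 9.72%.

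Lists of genes with known regulators were set beside the members, and their counts of genes that passed stand against 46.5% of all tested genes in SW1783 and 7.62% in HT29 at the high dose. Of 14 genes that hypoxia is known to induce, 5 rose and 8 fell at the high dose in SW1783: NDRG1 rose from 734 ± 9.9 to 3964 ± 136 normalized counts, ADM from 207 ± 12 to 526 ± 16 and VEGFA from 5996 ± 238 to 11739 ± 236, while PFKFB4 fell from 567 ± 31 to 283 ± 12, PFKFB3 from 1915 ± 30 to 1060 ± 17 and EGLN1 from 1372 ± 28 to 767 ± 44 (SD, n = 3). The list was divided, as were LOX, PLOD2 and P4HA1. Of 12 heat shock factor targets, 10 fell and 2 did not pass. HSPA1A fell from 2412 ± 48 to 982 ± 34, HSPA8 from 23930 ± 486 to 10243 ± 290 and DNAJA1 from 5199.5 ± 155 to 2471 ± 35 in the libraries in which SERPINH1 fell. Of 12 TGF-beta targets, 3 rose and 7 fell, with BHLHE40 at 3344 ± 24 and 6696 ± 134, PMEPA1 at 3822 ± 78 and 1822 ± 46 and ACTA2 at 1751 ± 39 and 911 ± 78. In HT29 at the high dose 4 of the 14 hypoxia genes rose, and 4 of the 12 heat shock factor targets rose and 1 fell, and 1 of 11 tested TGF-beta targets fell. VEGFA rose there from 1603.5 ± 95.9 to 2829.6 ± 399.9 normalized counts. The part of any regulator in the values of the members was not tested.

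Between the vehicles of the batches none of the 10 genes passed the test. In SW1783, 0 were called by DESeq2 or edgeR, where 0.00348% of all tested genes were, and 2 had an unadjusted p-value under 0.05. LOXL2, PLOD1 and SERPINH1 were lower in vehicle A without overlap of the groups, 3 of 10 genes where 8.84% of all tested genes had groups without overlap. In HT29, 0 were called by DESeq2 or edgeR, where 0.0% of all tested genes were, and 0 had an unadjusted p-value under 0.05. The log2 difference between the SW1783 vehicles was 0.02 ± 0.04 for LOX and -0.05 ± 0.02 for SERPINH1, against 0.40 and -0.63 for these genes with the high dose. Vehicle libraries of the same number were closer across the batches than those of different numbers, with a chi-square per degree of freedom over genes of 1.55 to 1.72 against 2.2 to 3.63 for SW1783 and of 1.48 to 1.58 against 4.95 to 22.82 for HT29. Whether they share a culture is not given in the sources used here, and if they do, this comparison says little about the batches.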

How the data were processed

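Per the labels and the study's methods, directional mRNA libraries were sequenced on an MGI instrument, trimmed, aligned with STAR 2.7.3a and quantified with RSEM 1.3.3 on an Ensembl annotation (versions from the submitters' processing notes, which the methods give partly otherwise). The table deposited by the authors holds RSEM expected counts per gene and library, without normalization. The genome is named there as GRCh38 alongside an older build, and strand setting and treatment of reads with several positions are not given in the sources used here. Expected counts were rounded, since 8.84% were not whole.

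The main test was the study's, DESeq2's Wald test (version 1.42.0, R 4.3.3, two-sided), with Benjamini-Hochberg adjustment over all genes of a contrast. Genes passed at an adjusted p under 0.05. DEGs also had an absolute log2 fold change over 0.585. Each line's 12 libraries of batch B and 6 of batch A were fitted separately, and interactions over both lines. A gene without an adjusted p counts as not tested. A count of 0 allows up to 3 counts, that is 0.0886 to 0.188 CPM, counting error only. CPM per kb used the canonical transcript of GENCODE 44. edgeR 4.0.16, size factors, filters, a replicate block and libraries left out in turn were alternatives, and the scripts were tested on simulated data. All members are named. Of the other lists, DEGs at the high dose against vehicle are named, up to 3 per sign with the largest change. These had at least 100 normalized counts on average and groups without overlap. Members and lists were chosen with earlier results of these data known.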

Additional observations from a re-analysis of the deposited data

Results flagged for a closer look

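The lines differed in their response by more than 1.5-fold, with an adjusted p-value under 0.05 for the interaction, for 6 results. Of all tested genes, 14.6% did so at the high dose, 3.34% at the medium dose and 3.36% with wortmannin. At the high dose of ACD the log2 fold change in SW1783 minus that in HT29 was 1.07 for LOX, -0.90 for LOXL1, -0.87 for P4HA1 and -0.81 for SERPINH1. At the medium dose it was 0.71 for LOX, which rests on single libraries and few HT29 counts. At both doses the SE of the LOX difference was below that of HT29 alone, so its adjusted p may be too small. With wortmannin it was -0.63 for LOXL4. That call was lost without SW1783 vehicle replicate 3 (adjusted p = 0.0688) and with the replicate number as a block (adjusted p = 0.0515). Groups of 3 libraries were not tested for outliers.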

How the results depend on the processing

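Size factors from TMM, a filter on low counts, leaving out mitochondrially encoded genes, and fits on all 18 libraries of a line, all 36 libraries or only the groups compared changed the side of the threshold for none of the counts of members beyond 1.5-fold. Without a fold threshold the number of members called in SW1783 was 8 at the high dose, 5 at the medium dose, 8 between medium and high dose and 6 with wortmannin. In HT29 it was 1, 1 and 1 for the medium dose, the low dose and medium against high, and 2 with wortmannin. For the interactions it was 6 at the high dose, 2 at the medium dose and 5 with wortmannin. With edgeR the interaction at the medium dose had 0 calls. With the replicate number as a block, the interactions at the medium dose and with wortmannin had 0 calls each (LOX adjusted p = 0.058, LOXL4 adjusted p = 0.0515), and no other count of members beyond 1.5-fold changed. The block also ended the calls at any fold of PLOD2 in the wortmannin interaction (adjusted p = 0.0899) and of PLOD1 with wortmannin in SW1783 (0.0787), added that of PLOD1 between the high and the medium dose in SW1783 (0.0421), and changed no other call of a member. Same-numbered libraries of different groups did not deviate together throughout: their correlation was -0.523 to 0.386 in HT29 and -0.13 to 0.245 in SW1783 within batch B, -0.058 to 0.13 and 0.017 to 0.059 within batch A, and -0.499 to 0.807 and -0.108 to 0.304 across the batches. The numbers were therefore not taken as pairs for the treatments, although they tie the vehicles of both batches. Without a replicate, the interaction at the medium dose had 0 to 1 calls and that with wortmannin 0 to 2, while other counts did not move. Shares from counts not divided by length, and then with all exons of a gene as its length (chosen after seeing the data), were 9.255% and 9.08% for LOX in the SW1783 vehicle and 13.7% and 13.8% at the high dose, 31.3% and 14.6% and then 25.5% and 11.4% for PLOD2, 36.9% and 15.2% and then 49.8% and 23.3% for P4HA2, and 72.3% and 73.5% in the vehicle and 80.9% and 81.8% with wortmannin for LOXL4 in HT29. Depth limits LOXL2, LOX and LOXL3 in HT29 and LOXL4 in SW1783.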

Other observations

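Over the 18 SW1783 libraries, the genes whose log2 CPM followed a member most closely were sought among 11409 genes averaging at least 100 counts. For LOX they were OS9 (Pearson r = 0.98), RNASE4 and MT2A. For PLOD2 they were AK4, HNRNPA2B1 and PPIA, for P4HA1 NASP, SMARCA1 and MRFAP1, and for SERPINH1 AFAP1L2, THY1 and CCNB1. The libraries share treatment groups and batches, so these likenesses describe the libraries, and no test was made on them. Ranked by Spearman's rho, 1, 0, 1 and 0 of the 3 genes remained for LOX, PLOD2, P4HA1 and SERPINH1.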
